A study of Secale cereale x Triticum turgidum subsp. durum with 48 samples.

Results

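The 100 probe sets described here are those whose signal rose by the most at the weakest of 3 successive steps of stem development in triticale, a cereal bred from wheat and rye. Probe sets for hybridization controls and reporter genes were left out, as were those whose IDs end in _s_at, _x_at or _a_at, which can read more than 1 transcript. For each of the other 48411 probe sets, the differences of stem group means between Zadoks stages 21 and 45, 45 and 59, and 59 and 75 were taken on the log2 scale, and the probe sets were ranked by the smallest of them. The top 100 are called members here and are numbered 1 to 100 by that rank. The stem arrays chose them, so their stem values are given as a description without a test, and tests were run only on the 36 arrays of the 12 other groups.

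Plants grew in a chamber with 16 h of light at 18 °C and 8 h of dark at 15 °C, and the labels give no treatment. RNA was hybridized to 48 Affymetrix Wheat GeneChip arrays, whose probe sets were designed on wheat. Stem, sampled as the internode between crown and second node, gave 3 arrays at each of stages 21, 45, 59 and 75 on the Zadoks scale, which numbers the growth stages of a cereal from germination to ripening. The leaf groups were seedling leaf of stage 13, leaf of stage 23 and the flag leaf, the last to form below the ear, which was sampled at stages 49, 75 (22 days after anthesis) and 85 (30 days), with 5 arrays at stage 49 and 3 in each other group. These tissues came from cultivar AC Certa, as did the seed tissues dissected at stage 85, soft dough: embryo, endosperm and crease with 3 arrays each, and pericarp and epiderm with 2 each. Root and coleoptile (the sheath that encloses the emerging shoot) were taken from cultivar AC Alta 7 days after sowing, with 3 arrays each. The crease is the vascular strand in the groove of the grain. Replicates are labelled as biological with no word on pooling of plants, and the p-values below therefore cover the spread among these arrays only.

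A cereal internode first elongates, then thickens and lignifies its cell walls. During grain filling it stores sugars, largely as fructan in temperate cereals, and later exports them to the ear. Leaves build the photosynthetic apparatus while young and, late in grain filling, break it down and export nitrogen, a process known as senescence.

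The platform annotation used here can be old and names 1273 of the 61290 probe sets on the array. It names 4 members with 3 symbols, namely LOC100037541 (member 4), LOC780634 (members 14 and 16) and LOC100037571 (member 87), and gives no role for them. The other 96 members carry no name there, so no pathway or marker list could be matched and the labelled tissues were not checked against marker genes. The 100 members fall into 99 transcript clusters by their IDs. IDs that start with TaAffx, clusters assembled by the array's maker, made up 30 members but 55.3% of the eligible probe sets, and 41.3% of the 21165 eligible probe sets above background in at least 1 group. IDs with A1 in place of S1, a letter that marks the orientation of the source sequence, made up 36 members, 18.3% of the eligible and 20.6% of those above background. The clusters of 40 members hold another 108 probe sets that were not members. Of these, 79 read higher at stem stage 75 than at stage 21 and 35 rose at all 3 steps, with a median total difference of 0.52. Many of the 108 lie in the cluster of member 66, where all but 1 fell at the last step, so the clusters do not weigh equally in these figures.

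Signals are log2 values from robust multi-array averaging (RMA), so a step of 1 is a 2-fold difference. A fitted difference from a group below background depends on the background level. The background level was set at 5.99, the 95th percentile of 64 reporter probe sets made for foreign genes. The median of the 61115 tested probe sets lay between 4.90 and 5.01 in every group. Replicate arrays correlated at 0.957 to 0.970 within leaf stages 13 and 23, at 0.977 to 0.980 within flag leaf stage 49 and at 0.981 to 0.993 in the other groups. The hybridization spikes, added to each sample at fixed amounts, read highest on replicates 4 and 5 of flag leaf stage 49. In these bulk samples, fewer cells of a type and less RNA per cell cannot be told apart.

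In stem, the members' median level went from 5.17 at stage 21 through 6.35 and 6.94 at stages 45 and 59 to 8.05 at stage 75. The medians of single arrays were 5.15 to 5.25, 6.09 to 6.38, 6.69 to 7.10 and 8.06 to 8.15, so the 4 stages did not overlap. In the same order, 31, 56, 70 and 93 members were above background, against about 34% of all tested probe sets at each stage. The remaining 7 stayed below background in all 4 stem means, among them members 53, 97 and 87, at 4.72, 5.36 and 5.44 at stage 75. The total difference from stage 21 to 75 ran from 1.22 to 9.98 with a median of 2.50, or 5.66-fold.

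**Figure D1:**
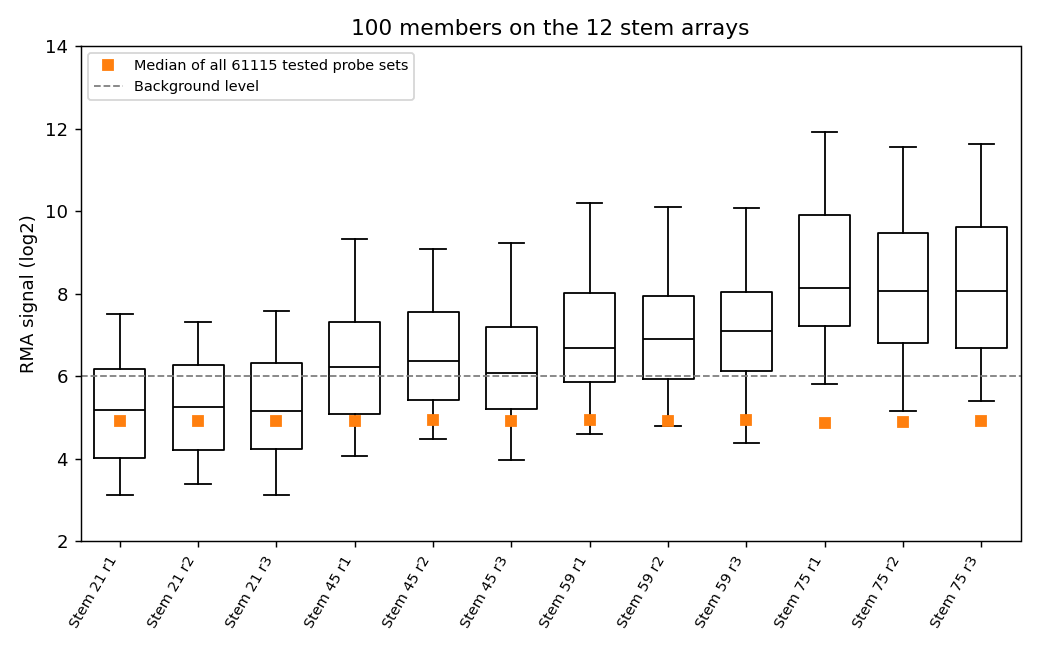
Signal (log2, vertical axis) of the 100 members on each of the 12 stem arrays, by stage and replicate (r1 to r3). Boxes span the quartiles with the median as a line, whiskers the 5th to 95th percentile, orange squares the median of all 61115 tested probe sets, and the dashed line the background level of 5.99. Members' medians climb from 5.15 to 5.25 at stage 21 to 8.06 to 8.15 at stage 75, while the squares stay level.

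The 3 steps were not equal. The last step, from stage 59 to 75, was the largest in 55 members and had a median of 0.94, with 47 members at 1 or more. The first was the largest in 39 members, with a median of 0.73, and the middle step in 6, with a median of 0.48. Every array of the later stage exceeded every array of the earlier one in 75 members at the first step, 61 at the second and 82 at the last, where the shares of all eligible probe sets were 22%, 12.8% and 22.8%. All 3 steps were free of overlap in 44 members (0.19% of the eligible). Without stem stage 59 replicate 3, whose spikes read lowest among the stem arrays, the count was 50. Leaving out any array can only keep or raise this count, and no other array was left out for it. These shares use the contrast that chose the members, and nothing is read from them. In members 10, 40, 51, 83 and 91 the arrays overlapped at every step. Member 83 read 3.94, 4.20 and 4.43 at stage 21, 3.72, 6.23 and 3.66 at stage 45, 3.75, 4.14 and 7.14 at stage 59, and 7.94, 4.11 and 4.31 at stage 75. A single array set each of its later means. The same arrays, stage 45 replicate 2, stage 59 replicate 3 and stage 75 replicate 1, were the highest of their stages in further members. Among these were members 10, 17, 22, 40, 42 and 91. On these 3 arrays member 10 read 6.85, 8.78 and 12.46, and at most 5.05 on the other arrays of these stages. Member 91 read 8.78, 10.07 and 10.85 on them, and at most 6.64 on the others. Member 22 read 4.24, 6.93 and 7.97 on them, and at most 5.54 on the others. How many members and other probe sets share this order was not counted.

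A rise at every step is itself common on this array. Of the eligible probe sets, 3206 (6.62%) had means that rose at all 3 steps, but in 27 of them every step reached 0.5, and in 5 every step reached 1. The last member read 5.60, 6.93, 7.82 and 8.15 over the 4 stages, and the first probe set outside read 7.38, 7.93, 8.26 and 8.62. Both had a smallest step of 0.33. Of 4 probe sets tied there, 1 was taken by file order.

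Member 1 (Ta.13318.1.S1_at) read 3.12, 3.40 and 3.12 on the stage 21 arrays, 5.40, 4.77 and 4.41 at stage 45, 6.25, 5.80 and 6.40 at stage 59, and 8.89, 8.57 and 8.65 at stage 75. Its 4 stages did not overlap, and it crossed background at stage 59. On the 36 non-stem arrays it stayed between 2.75 and 4.65, so that stem from stage 59 on was the one tissue with a mean above background. Member 2 (TaAffx.78888.1.S1_at) read 5.09, 4.99 and 5.13, then 7.36, 6.22 and 6.0, then 7.66, 8.04 and 7.46, and 10.23, 9.98 and 10.40 at stage 75. Elsewhere it read 5.18 to 6.79, highest on 1 crease array. Member 7 climbed from 5.06, 4.83 and 4.86 through 6.82, 8.47 and 5.71 and 7.86, 7.62 and 8.19 to 11.77, 11.76 and 11.43, with stages 45 and 59 overlapping. It lay between 4.06 and 5.73 on all non-stem arrays.

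These 3 members had the largest excess of stem stage 75 over the highest non-stem group mean, which was the crease mean in each. The excess was 6.10 for member 7, 4.38 for member 1 and 4.07 for member 2. They were not typical of the 100. Stem stage 75 exceeded every non-stem group mean in 32 members (8.89% of tested probe sets), and by 1 or more in 17 (0.587%). It was lower than the highest non-stem mean by 1 or more in 38. Over the 100, the difference between stem stage 75 and the highest non-stem mean had a median of -0.56 and ran from -7.91 to 6.10. All stem stage 75 arrays exceeded all 36 non-stem arrays in 17 members (2.26% of tested). The rule used the stem values, so this excess is a description.

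The members were not a set of one tissue outside the stem. Of 12 non-stem groups, the median member was above background in 7. In 17 members all 12 groups were above it (19.7% of tested probe sets), in 6 none was (50.1%), in 32 between 1 and 5 were, and in 45 between 6 and 11. Over the 12 group means, the median correlation between pairs of members was 0.19, with 370 of 4950 pairs above 0.8 and 1717 below 0.

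The highest non-stem mean lay in embryo for 38 members, in a leaf group for 29, in another seed tissue for 24 and in root or coleoptile for 9. Over all tested probe sets embryo was the highest group for 13.8%, and over those with a non-stem mean above background for 18.7%. Leaf, the other seed tissues, and root with coleoptile each led in a smaller share of members than of tested probe sets. Within leaf, flag leaf of stage 49 led in 11 members (6.56% of tested) and that of stage 75 in 7 (5.02%). Flag leaf of stage 85 led in 10 (6.89%) and leaf of stage 23 in 1 (6.57%). Leaf at stage 13 led in no member, although it led in 11.8% of tested probe sets. It was instead the lowest of the 12 groups in 36 members, against 9.12% of tested probe sets. Crease led in 8, against 20.3%, endosperm in 9 (3.41%), pericarp in 3 (4.13%) and epiderm in 4 (8.04%). Root led in 7 (9.82%) and coleoptile in 2 (3.65%).

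**Figure D2:**
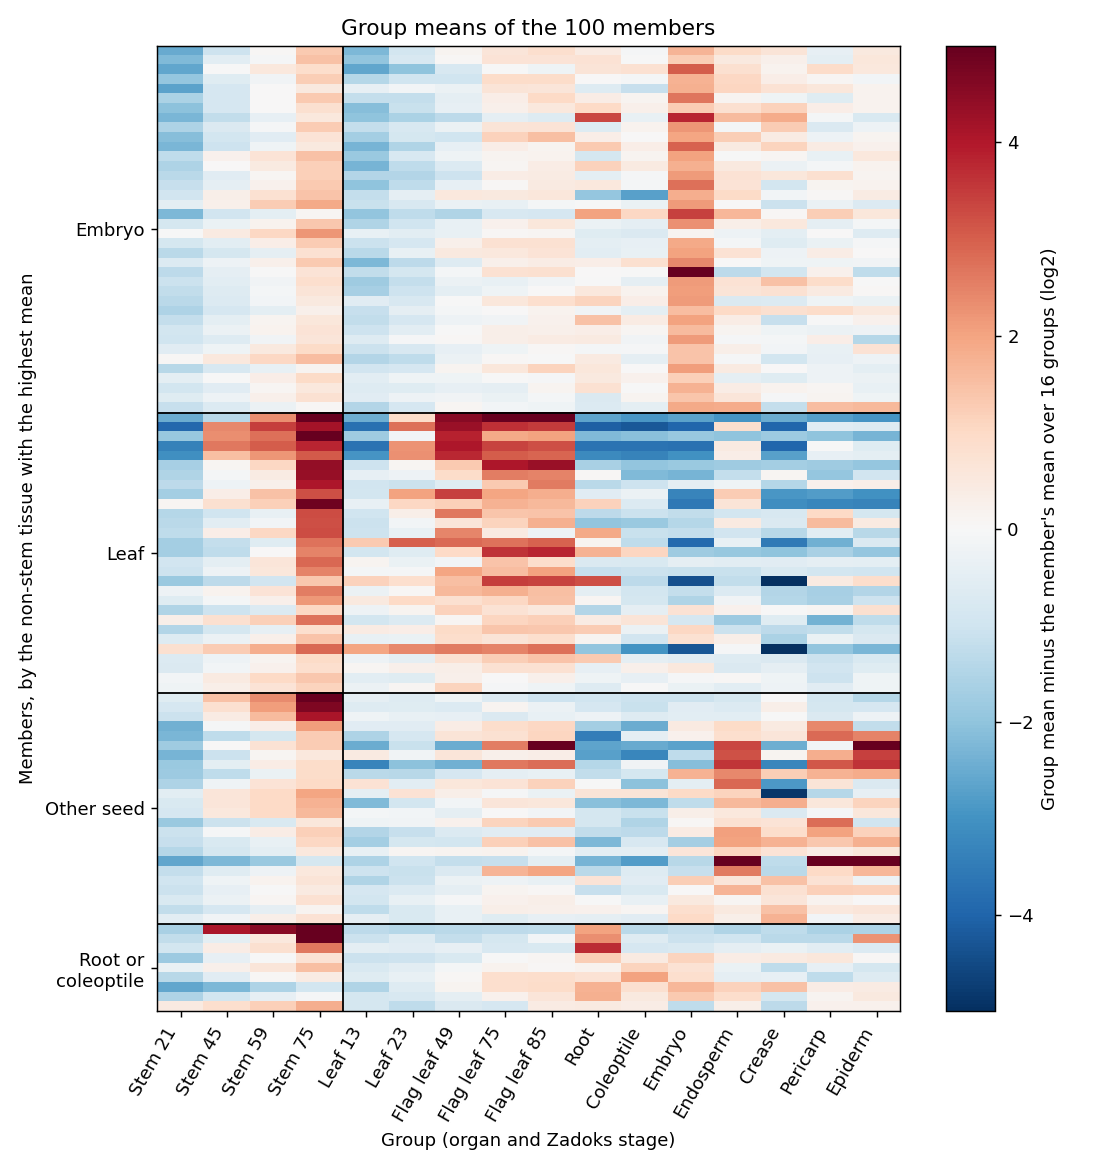
Group means of the 100 members (rows) in 16 groups (columns), each as the difference from the member's own mean over the groups (log2, colour scale from -5 to 5). Rows are split by the non-stem tissue with the highest mean, with 38 members for embryo, 29 for leaf, 24 for other seed tissues and 9 for root or coleoptile, and within each by total stem rise. The 4 stem columns at the left darken towards red in every block, whereas the columns to the right differ between blocks.

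Members of these classes differed in how the stem compared with other tissues. The 29 highest in leaf had a median total stem difference of 4.15, against 2.21 for the 38 highest in embryo, and stem stage 75 exceeded all non-stem means in 19 of them, against 3 of the 38. The embryo class was above background in a median of 9 groups and the leaf class in 5. Median levels of the embryo class were 8.87 in embryo, 7.29 in endosperm, 6.80 in crease, 7.88 in stem at stage 75 and 5.12 in leaf at stage 13, where 28 of its 38 members were lowest. The leaf class had medians of 8.16 in flag leaf at stage 75, 9.41 in stem at stage 75, 4.30 in embryo and 4.26 in crease. The classes were formed from the same means, so these levels describe them and test nothing.

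In leaf, the members read higher at later stages. The members' median level was 5.22 in leaf at stage 13 and 5.82 at stage 23, and in flag leaf it went from 6.49 (stage 49) through 7.17 (stage 75) to 7.32 (stage 85), while the median of all tested probe sets went from 5.01 to 4.90. The number above background went from 34 through 45, 64 and 76 to 76, against 33.5% to 33.9% of tested probe sets in these groups. Flag leaf at stage 85 was higher than leaf at stage 13 on 69 members and lower on 0, against 8.81% and 4.48% of all tested probe sets (limma, Benjamini-Hochberg adjusted p under 0.05 and a log2 difference of at least 1). Among the 30492 probe sets with a non-stem mean above background, called expressed here, which include 94 members and all 69, 16.6% were higher and 8.27% lower. At an unadjusted p under 0.05, 84 members differed in either direction, against 42.4% of tested probe sets.

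The 69 differences ran from 1.01 to 7.72 with a median of 2.05. Over all 100 members the median difference was 1.52, against -0.06 over all tested probe sets, and all flag leaf arrays at stage 85 lay above all leaf arrays at stage 13 in 79 members (21.6% of tested). The comparison was added after the group medians had been seen. It sets a seedling leaf against a different, later leaf, so leaf position and stage cannot be told apart. All leaf RNA came from the same cultivar and the same extraction kit. The members rose at every leaf step in their means in 29 cases, against 5.58% of tested probe sets.

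**Figure D3:**
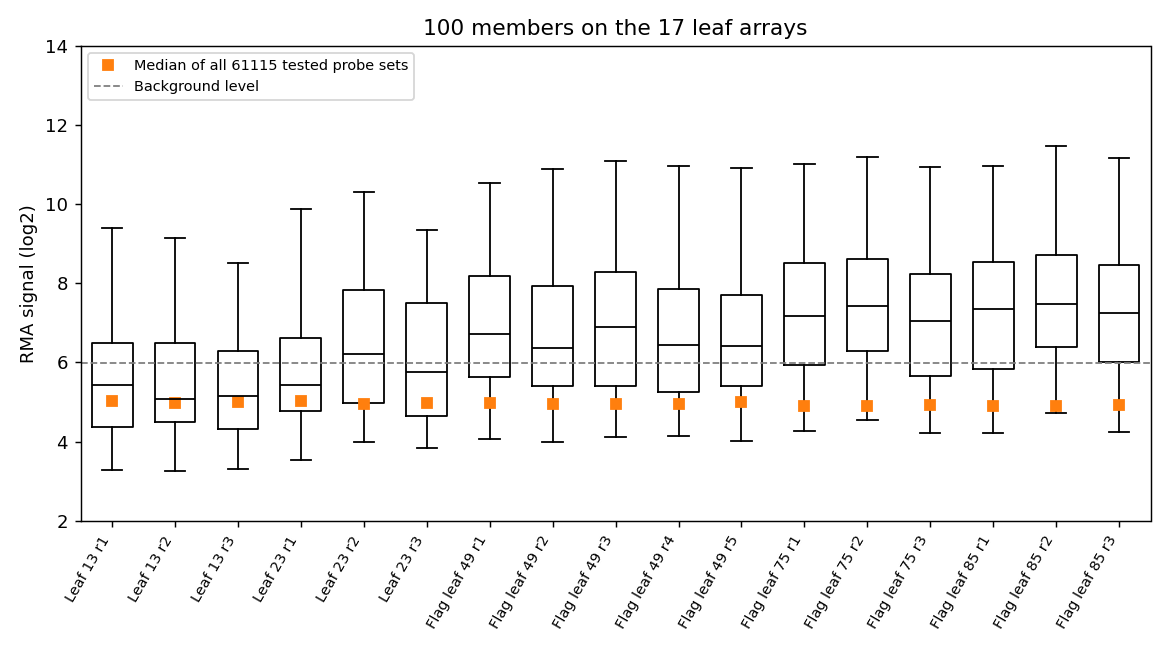
Signal (log2, vertical axis) of the 100 members on each of the 17 leaf arrays, by stage and replicate. Boxes span the quartiles with the median as a line, whiskers the 5th to 95th percentile, orange squares the median of all 61115 tested probe sets, and the dashed line the background level. Members' medians lie at 5.07 to 5.43 in leaf at stage 13 and at 7.26 to 7.49 in flag leaf at stage 85, and the 3 arrays of leaf stage 23 spread from 5.44 to 6.21.

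The members' median differences were 0.41, 0.57 and 0.41 at the first 3 leaf steps and 0.08 at the last. From leaf stage 13 to 23, 12 members rose and 0 fell (0.856% and 0.934% of tested probe sets, 1.63% and 1.78% of expressed ones), with 41 at an unadjusted p under 0.05 in either direction (16.8% of tested). Centring each array on its hybridization spikes (spike centring) gave 6, and a fit of the compared groups alone gave 4 (0.461% and 0.0131% of tested). From leaf stage 23 to flag leaf stage 49, 20 were higher and 0 lower (0.826% and 1.28% of tested, 1.58% and 2.44% of expressed), with 59 at an unadjusted p under 0.05 (16.9% of tested), and with 10 and 6 higher in those alternatives (0.267% and 0.128%). Leaving out 1 array gave 8 to 25 for the first count and 13 to 31 for the second. Without leaf stage 23 replicate 1 they were 25 and 13, with 1 lower in the second, and without replicate 2 the second was 31. Between flag leaf stages 49 and 75, 13 members were higher and 5 lower (2.76% and 1.33% of tested, 5.1% and 2.48% of expressed). Spike centring gave 36 higher and 2 lower (8.5% and 0.604% of tested). The 5 became 2 without flag leaf stage 75 replicate 1 and 3 without replicate 3. Without flag leaf stage 49 replicates 4 and 5, whose spikes read highest, 27 were higher against leaf stage 23 (0.995% of tested). Stage 75 against 49 then had 13 higher and 4 lower (2.6% and 1.23%). Between stages 75 and 85 limma called 0 higher and 0 lower (0.00327% and 0% of tested, 0.00656% and 0% of expressed), with 10 members at an unadjusted p under 0.05 (4.25% of tested), and with array weights 1 was called higher. Successive leaf comparisons share arrays.

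Members 14 and 16, both annotated LOC780634, and the unnamed member 55 moved together. Member 16 read 3.51, 2.89 and 2.90 in leaf at stage 13 and 10.10, 10.14 and 8.54 at stage 23. On the 5 flag leaf arrays at stage 49 it read 10.98 to 11.22, and later 10.35, 10.68 and 10.41 (stage 75) and 10.32, 10.47 and 10.18 (stage 85). It was thus far below background in seedling leaf and high on every later leaf array. The rise from stage 13 to 23 was 6.49 (SE 0.29, adjusted p = 2.78e-16), with stage 23 at 12.1-fold above the background level, and that of member 55 was 5.92 (SE 0.27, adjusted p = 4.28e-16).

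The same probe sets separated seed tissues and early stem. Member 16 read 7.72, 7.42 and 7.83 in endosperm, 5.62 and 6.88 in pericarp and 6.0 and 6.38 in epiderm. It stayed between 2.39 and 3.12 in root, coleoptile, embryo and crease. In stem it went from 2.98, 2.78 and 2.87 at stage 21 to 9.32, 9.08 and 9.23 at stage 45. Over the 36 non-stem arrays the correlation was 0.993 between members 14 and 16, 0.996 between 16 and 55 and 0.993 between 14 and 55, the 3 closest of 4950 pairs. The array holds another probe set of LOC780634, left out by its _s_at ending, which read 3.22, 9.33, 10.15 and 10.83 in the 4 stem means. Probe sets of one symbol can read the same transcripts and are not independent.

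Member 4 (LOC100037541), the member with the largest total stem difference, also had the largest difference in the comparison of flag leaf stage 85 with leaf stage 13. It read 3.29, 3.25 and 3.45 in leaf at stage 13, 6.10, 7.32 and 6.65 at stage 23, and 9.90 to 10.77 in flag leaf at stage 49. The later flag leaf arrays read 10.84, 11.40 and 10.52 (stage 75) and 10.54, 11.87 and 10.74 (stage 85). The first 3 leaf groups did not overlap, and the last 3 did. The step from stage 23 to flag leaf stage 49 was 3.62 (SE 0.25, adjusted p = 8.68e-11), and flag leaf at stage 85 exceeded leaf at stage 13 by 7.72 (SE 0.28, adjusted p = 9.46e-19). Its leaf stage 13 level is below background, and flag leaf at stage 85 was 33.3-fold above the background level itself. On the 13 seed arrays and the 6 root and coleoptile arrays it lay between 2.65 and 3.43. Its mean in seed was lower than in the non-stem vegetative groups by 3.89 (log2 -3.89, SE 0.12, adjusted p = 7.68e-23). A second probe set of the symbol, with A1 in its ID, stayed below background in all 16 means, at 3.97 to 5.62, highest in stem at stage 75.

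**Figure D4:**
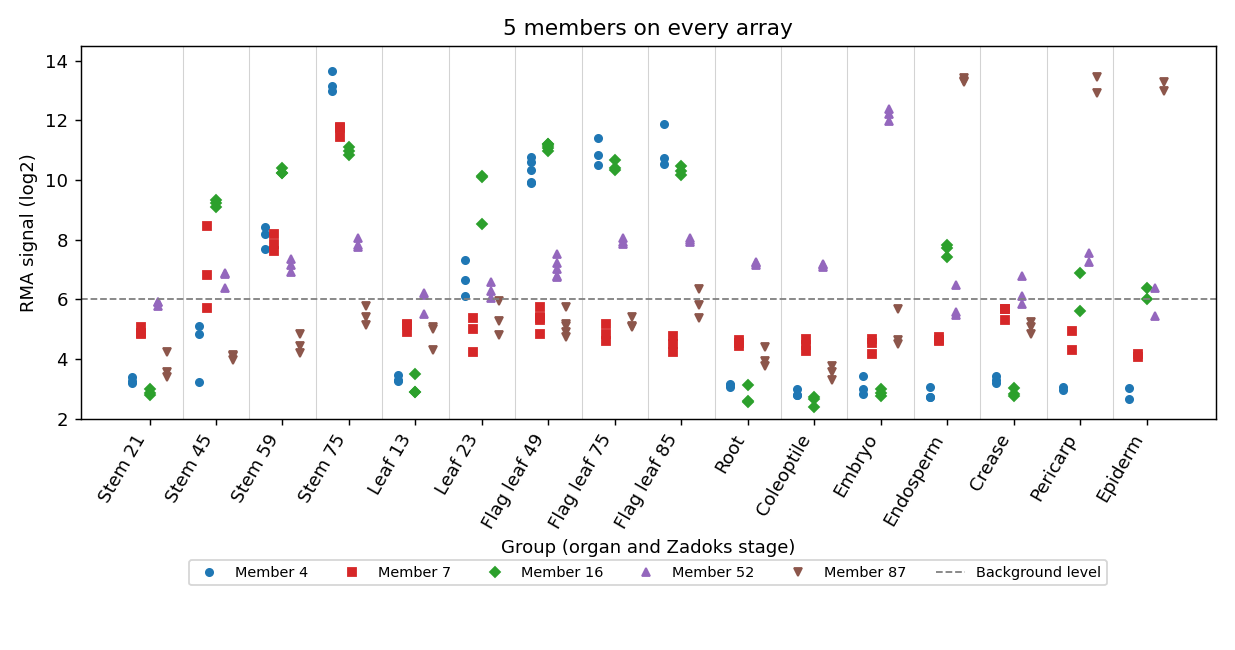
Signal (log2, vertical axis) of members 4, 7, 16, 52 and 87 on every array, with 1 point per array in the 16 groups (horizontal axis) and the background level as a dashed line. All 5 increase along the stem stages, whereas outside the stem members 4 and 16 are high in the later leaf groups, member 52 in embryo at 11.98 to 12.39, member 87 in endosperm, pericarp and epiderm at 12.93 to 13.46, and member 7 in no group.

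Between flag leaf stages 49 and 75 the largest rises were in members 24 and 26. Member 24 read 5.23 to 7.08 on the 5 arrays of stage 49, 11.27, 11.22 and 11.61 at stage 75 and 11.57, 11.54 and 11.46 at stage 85. The groups at stages 49 and 75 were far apart, and the difference was 5.04 (SE 0.46, adjusted p = 4.5e-09), 32.8-fold. Member 26 read 3.49 to 4.02 at stage 49, then 7.48, 9.37 and 9.49, and 10.75, 11.95 and 11.51 at stage 85, with a difference of 5.01 between stages 49 and 75 (SE 0.55, adjusted p = 1.39e-07). In stem its stage 75 arrays ran from 5.16 to 10.30, with 1 array above, 1 within and 1 below the range of stage 59, which was 6.40 to 7.49.

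Members 3, 15, 34, 45 and 63 went the other way in flag leaf. Member 15 read 6.76 to 7.83 at stage 49 and 5.03, 6.24 and 4.78 at stage 75, a difference of -1.99 (SE 0.27, adjusted p = 5.58e-06). Member 34 read 8.36 to 10.00 at stage 49 and 6.96, 8.10 and 6.50 at stage 75, a difference of -1.92 (SE 0.59, adjusted p = 0.0255, and 0.0513 to 0.134 without any 1 of 4 arrays). Both groups were apart in each case. In stem, member 34 read 8.27, 7.04 and 8.85 at stage 59 and 11.97, 10.17 and 9.92 at stage 75. It had risen by 3.98 from leaf stage 23 to flag leaf stage 49 (SE 0.59, adjusted p = 7.33e-05), where stage 23 read 7.85, 3.40 and 4.15. With the compared groups alone in the fit, the adjusted p of that rise was 0.0899. All 5 members that fell had their highest non-stem mean in flag leaf at stage 49.

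Among the seed tissues, embryo had the most calls. It exceeded the mean of the other 4 seed tissues on 41 members and was lower on 21, against 9.13% and 7.24% of tested probe sets, and against 16.8% and 14.2% of expressed ones. All embryo arrays lay above all other seed arrays in 40 members (10.9% of tested). Of the 41, 34 also passed as higher in the comparison of flag leaf stage 85 with leaf stage 13, as did 16 of the 21, where 69 of all 100 members did. Of all tested probe sets called higher or lower in embryo, 21% and 18.4% passed in that leaf comparison. RNA of embryo, endosperm and pericarp was extracted with guanidine hydrochloride and that of crease and epiderm with a column kit. Against endosperm and pericarp alone, embryo was higher on 39 and lower on 24 (9.61% and 8.37% of tested).

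Member 52 read 11.98, 12.39 and 12.21 in embryo and 5.43 to 7.56 on the other 10 seed arrays. The difference was 5.84 (SE 0.20, adjusted p = 1.19e-20), 57.4-fold. On the vegetative arrays outside the stem it ran from 5.52 to 8.06, and stem at stage 75 read 7.75, 8.05 and 7.81, so its stem mean was 4.32 below that of embryo. Member 8 read 9.68, 9.48 and 10.01 in embryo, 7.04, 6.85 and 8.57 in endosperm, 8.08, 7.70 and 7.45 in crease, 5.99 and 5.63 in pericarp and 5.43 and 4.86 in epiderm. The order embryo over the others was clear, and endosperm and crease overlapped. It was higher in embryo by 3.18 (SE 0.26, adjusted p = 1.16e-11) and lower in epiderm by 2.55 (log2 -2.55, SE 0.30, adjusted p = 7.76e-08). In root it read 9.10, 9.32 and 9.29, near its embryo level, and in leaf it stayed at 3.35 to 5.55.

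Member 87 (LOC100037571) ran opposite to member 52 in the grain. It read 13.34, 13.29 and 13.44 in endosperm, 12.93 and 13.46 in pericarp and 12.99 and 13.29 in epiderm. In embryo it read 4.49, 4.63 and 5.69 and in crease 5.23, 5.07 and 4.83, all below background. Embryo was lower than the other seed tissues by 6.25 (log2 -6.25, SE 0.24, adjusted p = 1.3e-19) and crease by 6.11 (log2 -6.11, SE 0.24, adjusted p = 2.81e-19). On the 12 stem arrays it ran from 3.38 to 5.79, so the rise that made it a member lay wholly below background. Member 26 was also high in epiderm, at 11.20 and 11.68, against 9.28, 9.77 and 9.64 in endosperm, 6.39 and 5.84 in pericarp and at most 4.28 in embryo and crease. Its epiderm difference was 5.68 (SE 0.58, adjusted p = 4.1e-09).

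The remaining seed tissues held fewer calls. Crease was lower on 30 members and higher on 6 (9.54% and 5.38% of tested, 18.8% and 9.54% of expressed). Spike centring gave 42 lower and 1 higher (14.1% and 2.91%), and epiderm alone as the other side, which shares the extraction kit, 22 lower and 12 higher (10.5% and 7.69%). Member 24 was lowest in crease, at 5.26, 4.99 and 6.09, against 11.75 to 12.44 in endosperm, pericarp and epiderm and 6.41 to 6.79 in embryo (log2 -5.31, SE 0.42, adjusted p = 4.27e-12). Member 25 read 7.48, 6.87 and 6.90 in crease and 4.51 to 6.49 in the other seed tissues, higher by 1.70 (SE 0.27, adjusted p = 4.05e-06). Member 83, the other of the pair named for crease, was higher by 1.35 (SE 0.39, adjusted p = 0.0056), with arrays at 7.51, 5.42 and 6.42, and 0.82 with an adjusted p of 0.14 without crease replicate 1.

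Endosperm was higher on 17 members and lower on 1 (5.09% and 1.93% of tested, 9.86% and 3.82% of expressed). The 1 lower was member 52. Member 3 read 6.84, 7.14 and 8.42 in endosperm and 2.59 to 3.49 in all other seed arrays, a difference of 4.29 (SE 0.34, adjusted p = 2.34e-11). Pericarp was higher on 12 and lower on 11 (4.71% and 3.25% of tested, 9.19% and 6.01% of expressed), and epiderm higher on 11 and lower on 11 (6.42% and 5.03% of tested, 12.3% and 9.93% of expressed), each with 2 arrays. In pericarp, member 84 was higher by 2.94 (SE 0.49, adjusted p = 3.69e-05) and member 18 lower by 1.49 (log2 -1.49, SE 0.24, adjusted p = 2.18e-05). Member 84 read 9.24 and 9.31 in pericarp, below 9.83 and 9.60 in epiderm, and at most 4.51 in embryo and crease. Member 18 read 6.18 and 5.44 in pericarp and 6.24 and 6.32 in epiderm, against means of 8.71 in embryo and 7.81 in crease. In epiderm, member 50 read 8.04 and 7.70 against 9.43 to 11.75 in the other seed tissues (log2 -2.32, SE 0.22, adjusted p = 9.36e-10). Against tissues of the same extraction method alone, pericarp was lower on 32 and epiderm higher on 22 (5.2% and 10.5% of tested), with fewer tissues compared. For epiderm the other side was then crease alone, so this is the comparison of crease with epiderm given above, with its sides swapped.

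Seed as a whole was higher than the non-stem vegetative groups on 25 members and lower on 21 (7.73% and 8.3% of tested, 15.2% and 16.2% of expressed). Cultivar and RNA extraction differ between these sides in part and cannot be told apart from organ. Crease and epiderm against leaf, which share cultivar and kit, gave 20 higher and 24 lower (10.3% and 9.7% of tested), so the balance of higher and lower turned. Spike centring gave 42 higher and 19 lower (12.5% and 6.17%). Member 28 was lower in seed by 3.86 (log2 -3.86, SE 0.12, adjusted p = 2.93e-23). It read 8.88 to 11.40 on the 17 leaf arrays and 4.02 to 8.02 on the seed arrays. Its root and coleoptile arrays, also on the vegetative side, ran from 6.38 to 8.51 and overlapped those of seed. Member 22 read 6.22 to 8.36 in seed and 3.28 to 5.54 on the vegetative arrays outside the stem, higher in seed by 2.73 (SE 0.19, adjusted p = 8.65e-14). It was below background in all vegetative groups outside the stem.

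Root was higher than coleoptile, of the same cultivar and extraction method, on 17 members and lower on 3 (6.92% and 6.6% of tested, 12.6% and 12.5% of expressed), and on 30 and 2 with spike centring (11.5% and 5.1%). Member 36 read 8.98, 9.10 and 8.61 in root and 4.45, 4.22 and 4.30 in coleoptile, higher by 4.57 (SE 0.22, adjusted p = 1.91e-17). On the other non-stem arrays it stayed at or below 5.30, and in stem it ran from 4.21 to 8.58. Member 84 read 12.05, 11.95 and 12.19 in root and 7.22, 7.40 and 7.98 in coleoptile, higher by 4.53 (SE 0.52, adjusted p = 2.43e-08). Member 70 went the other way, at 4.88, 5.08 and 5.0 in root and 8.08, 7.86 and 8.10 in coleoptile (log2 -3.03, SE 0.18, adjusted p = 3.08e-15), and so did member 74 (log2 -1.46, SE 0.30, adjusted p = 0.000282).

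**Figure D5:**
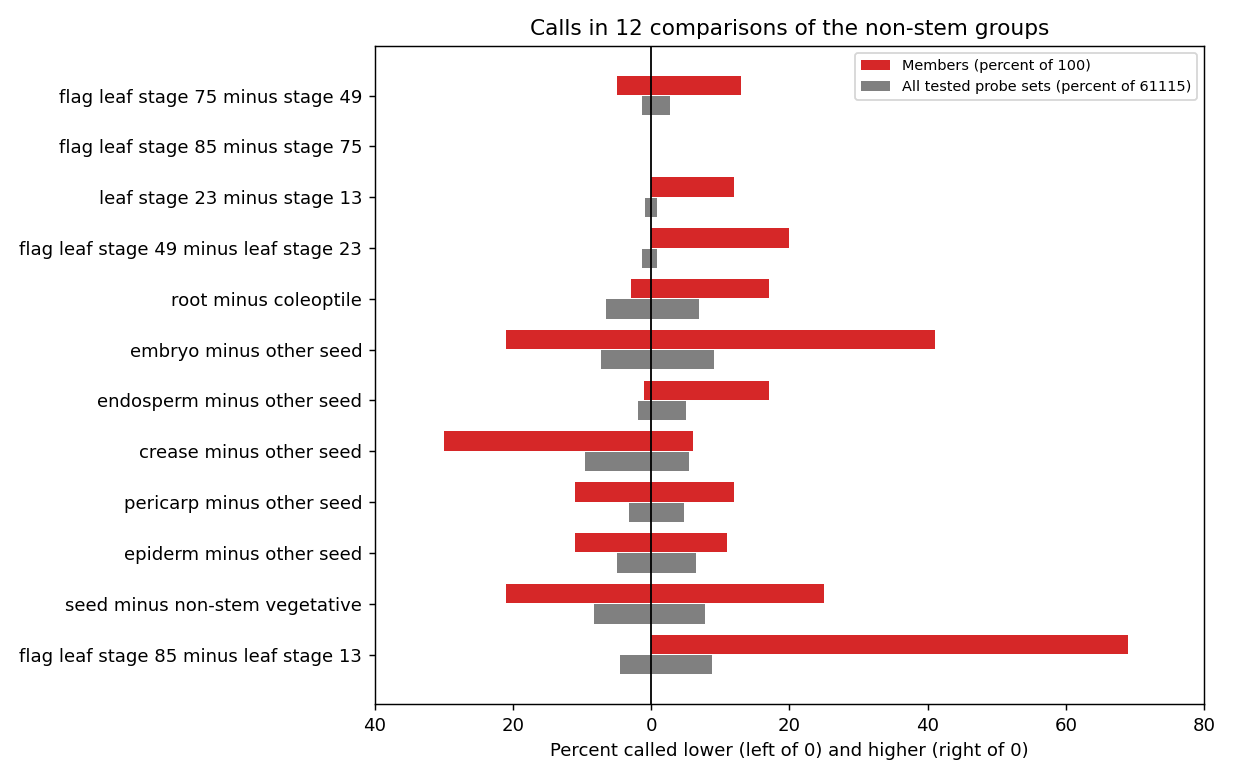
Percent of the 100 members (red) and of all 61115 tested probe sets (grey) called higher (right of 0) and lower (left of 0) in 12 comparisons of the non-stem groups, each named as one side minus the other. Members reach 69% higher in flag leaf at stage 85 against leaf at stage 13, 41% higher and 21% lower in embryo, and 30% lower in crease, and no call is drawn for flag leaf stage 85 against 75.

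Other members chosen by rank or level gave further patterns. Member 39 was bright in all green tissues, at 12.24 to 13.31 on the leaf arrays and 13.52, 12.83 and 13.57 in stem at stage 75, and read 4.77 to 10.52 in seed. Its stem stage 45 arrays read 12.48, 12.24 and 10.45, of which the last lies below all stage 21 arrays. Member 69 read 12.24, 11.99 and 11.90 in stem at stage 75, above all other arrays, whose highest value was 9.59. It read at most 4.85 in embryo, crease, pericarp and epiderm and 7.15 to 8.34 in endosperm. Member 5 read 8.66, 8.91 and 8.64 in stem at stage 75 and 9.17, 9.19 and 9.09 in embryo, and was above background in all groups other than leaf at stage 13 and stem at stage 21. Member 6 read 8.05, 9.89 and 9.48 in stem at stage 75, 8.61 to 9.27 in flag leaf at stages 75 and 85, and at most 3.29 in root, coleoptile and seed. Its stem stage 59 arrays read 7.56, 6.83 and 2.97, so replicate 3 alone lay at the stage 21 level.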

How the data were processed

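The authors deposited 1 table of log2 values for all 48 arrays, made with RMA per the submitters' processing notes, and the software and its version are not named. Base 2 was assumed, since RMA gives log2 values and no source names the base. RMA makes array distributions alike, which hides any change common to most transcripts, and signal flattens at both ends of the scale. The number of arrays limits the precision.

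From these values, group means, stem steps and ranks were computed with Python 3.11.15 and pandas 2.3.3. The 12 comparisons of non-stem groups were fitted with limma 3.58.1 in R 4.3.3 on 36 arrays, with group means and no covariate (24 residual and 5.89 prior degrees of freedom), two-sided, and Benjamini-Hochberg adjustment over 61115 probe sets. Calls needed an adjusted p under 0.05 and a log2 difference of at least 1. The fit was tested on simulated data.

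The members and the lists were chosen with earlier results of these data known. Described with values are members 1 to 6, those with the 3 highest and 3 lowest stem stage 75 means, the 3 largest excesses and deficits of stem stage 75 against other groups, members with a symbol, and for each comparison the largest 2 rises and 2 falls called. Members 10, 17, 40, 42, 45, 51, 63 and 91 were added after their values were seen. Gene lists and cell type markers could not be matched for want of names. In the pairs of groups checked, same-numbered replicates correlated in their deviations from group means at -0.04 to 0.27. Not every pair of groups was checked, and among seed tissues pericarp was set against epiderm alone. The correlations were over 0.1 in all 3 pairs for embryo and crease (0.10 to 0.19) and in no other pair of groups checked. The labels tie no numbers together, so samples were not treated as paired. Alternatives were other scalings, filters, variance priors, fits and left-out replicates.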

Additional observations from a re-analysis of the deposited data

Results flagged for a closer look

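Flag leaf at stage 49 replicate 1 lay apart from the other 4 arrays of its group on 3 of 31 members checked. It read 10.53 on member 14, where the others read 10.90 to 10.97, 10.37 on member 28, where they read 11.12 to 11.29, and 12.46 on member 39, where they read 13.15 to 13.30. Dixon's criterion marks about 1 in 20 groups by chance.

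Members 3, 15, 34 and 63 were lower in flag leaf at stage 75 than at stage 49 on every array, by -1.44, -1.99, -1.92 and -1.16 on the log2 scale, whereas their stem arrays at stage 75 all lay above those of the preceding stage. The stem rise chose the members, and the difference between leaf and stem was not tested. Member 63 read 6.05 to 6.76 in flag leaf at stage 49 and 4.95, 5.83 and 5.09 at stage 75, and in stem 5.90, 6.11 and 6.06 at stage 59 and 6.60, 6.25 and 6.55 at stage 75.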

How the results depend on the processing

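No named member's difference changed sign, and 842 of 853 values recomputed for named members kept direction and call. These were the largest called differences of each comparison in the main fit, a choice that itself favours keeping the call. Dropping the fold minimum could not end a call. The 11 lost calls concern members 34 and 83. Centring arrays on the spikes moved the median of all tested probe sets from -0.05 to 0.36 in flag leaf stage 75 against 49, from 0.01 to -0.35 in flag leaf 49 against leaf 23, from 0.03 to 0.37 in root, from -0.02 to 0.39 in embryo, from 0.10 to -0.27 in crease and from 0.00 to 0.33 in seed, and the members' medians by as much. It gave 36 higher and 2 lower in flag leaf 75 against 49, 6 higher in leaf 23 against 13, 10 in flag leaf 49 against leaf 23, 30 in root, 1 in crease and 42 in seed, and it kept 69 of the 100 members. Without a fold minimum, 29 were higher in flag leaf 75 and 32 in flag leaf 49 (8.8% and 2.82% of tested). Root had 30 higher and 9 lower (13.5% and 10.35%), and crease and seed had 15 and 55 higher (23.3% and 28%). Lower were 7 in endosperm (9.58%), 18 in pericarp (9.4%), 25 in epiderm (11.8%) and 1 in flag leaf 85 against leaf 13 (14.8%). With the compared groups alone in the fit, 4 and 6 were higher in leaf 23 and flag leaf 49 (0.0131% and 0.128% of tested), and 5 lower in root (6.7%). With all 48 arrays 5 were lower in root (6.6%). Array weights gave 6 lower in root (6.73%) and 2 lower in endosperm (1.99%). They also gave 1 higher in flag leaf 85 against 75 (0.0229%) and 1 lower in leaf 23 (1.5%). Tissues of the same extraction method alone, an alternative chosen after seeing the data, gave 6 lower in endosperm and 32 lower in pericarp (3.69% and 5.2% of tested). It gave 12 higher in crease and 22 higher in epiderm (7.69% and 10.5%). The crease and epiderm counts come from 1 comparison of these tissues with each other. There the balance of higher and lower turned in seed, from 25 and 21 to 20 and 24, and in pericarp, from 12 and 11 to 10 and 32 (10 and 13 with spike centring), and the members' median turned in endosperm, from 0.11 to -0.09, and in epiderm, from -0.24 to 0.01. The causes were not tested.

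Leaving out 1 replicate at a time gave 8 to 25 higher and 0 to 1 lower in leaf 23, 13 to 31 higher and 0 to 1 lower in flag leaf 49, 2 to 5 lower in flag leaf 75, 3 to 5 lower in root (5 without root replicate 1) and 1 to 2 lower in endosperm. It gave 66 to 73 higher in flag leaf 85 against leaf 13, and 28 to 34 members rising at every leaf step. Of the members, 73 to 94 were kept without 1 stem array, 92 with quantile normalization, 72 with replicate medians and 70 with suffixed IDs. With the replicate number as a block, 13 members were higher and 4 lower in flag leaf 75 (2.63% and 1.24% of tested). There 13 were higher in leaf 23 (0.857%), 28 in flag leaf 49 (1%), 40 in embryo (9.16%) and 23 in seed (7.63%). The block ended the call of member 34 in flag leaf 75 (adjusted p = 0.0622) and changed no other named call. With spike centring 47 members were highest in embryo and 23 rose at every leaf step, against 38 and 29. Differences below the background level are limited by signal.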
